A study of Mus musculus with 21 samples.

Results

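The 10 genes described here encode the parts that build and load MHC class I molecules: the light chain (*B2m*), the heavy chains (*H2-K1*, *H2-D1*, *H2-T23*), the peptide transporter (*Tap1*, *Tap2*), its bridge to the heavy chain (*Tapbp*), inducible proteasome subunits (*Psmb8*, *Psmb9*) and a regulator of class I transcription (*Nlrc5*). They were taken by gene symbol, as 10 of the 56691 genes in the deposited table, and all 10 were among the 13990 genes tested. RNA was measured in 21 mouse heart libraries. Control libraries (n = 5) came from saline-treated mice without a tumor and DOX libraries (n = 5) from mice without a tumor given doxorubicin. Tb libraries (n = 6) came from saline-treated mice carrying a tumor and Tb-DOX libraries (n = 5) from tumor-bearing mice given doxorubicin. Doxorubicin, an anthracycline chemotherapy drug that is toxic to heart muscle, was injected into the peritoneum at 5 mg/kg once a week, with 3 injections, and the tumors were grown from subcutaneous 4T1 cells, a mouse breast cancer line. The strain, sex and age of the mice are not given in the sources used here, and neither is whether each library is from a separate mouse, so p-values measure the spread between libraries. Library totals ranged from 13521200 to 18601445 counts. The labels name the 4T-1 line as the source of every library, while the study describes heart tissue. Heart muscle markers were abundant in every library: the summed level of 8 cardiomyocyte genes was 46238 to 87136 CPM (counts scaled to the library total, here with TMM, the trimmed mean of M-values).

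MHC class I molecules display peptides from inside the cell to CD8 T cells and are made by nearly all nucleated cells. Proteasomes cut proteins into peptides, the TAP transporter moves the peptides into the endoplasmic reticulum, and a loading complex of tapasin, calreticulin and a disulfide isomerase holds the empty heavy chain with beta-2-microglobulin until a peptide fits. Interferon raises most genes of this pathway, and NLRC5 acts at class I promoters through a conserved set of promoter elements. Heart muscle cells are known for low class I levels at rest, so the vessels, connective tissue and immune cells of a heart sample can carry much of its class I RNA. In RNA from whole tissue, fewer cells of a type and less RNA per cell cannot be told apart.

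The genes lie close together. By the coordinates in the table, whose build the submitters' notes name as GRCm39, 8 of the 10 are on chromosome 17 and span 2209 kb. Within them *Psmb9* (chr17:34400961-34406738), *Tap1* (chr17:34406527-34416199), *Psmb8* (chr17:34416695-34420428) and *Tap2* (chr17:34422501-34435295) fill 34.3 kb. *Tapbp* is at chr17:34134873-34148266, *H2-K1* at chr17:34214991-34219321, *H2-D1* at chr17:35481706-35486475 and *H2-T23* at chr17:36340665-36343747. *B2m* is on chromosome 2 (chr2:121978167-121983564) and *Nlrc5* on chromosome 8 (chr8:95160984-95253900). The gene models of *Psmb9* and *Tap1*, which are on opposite strands, share 212 bases. *Tapbp* shares bases with *Zbtb22* on the same strand. Whether the counting used strand is not given in the sources used here.

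Promoter windows of 300 bases (250 before and 50 after the start, RefSeq, GRCm38.p6) were found for 8 of the 10 genes. *Tap2* and *Nlrc5* have no entry. The stretches below show the feature that links the light chain to the 2 classical heavy chains: TGACG, the core of a cyclic AMP response element, and ATTGG, the reverse complement of a CCAAT box, separated by 20 bases. Capitals mark these 2 elements.
H2-K1 (chr17:34000359-34000388, minus strand): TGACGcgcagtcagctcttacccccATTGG
H2-D1 (chr17:35262993-35263022, plus strand): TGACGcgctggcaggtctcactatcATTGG
B2m (chr2:122147609-122147638, plus strand): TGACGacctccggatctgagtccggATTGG

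TGACG alone was present on either strand in 20.8% of all 32851 promoter windows and CCAAT in 37.4%, whereas the pair at this spacing was in 31 windows, or 0.0944%. The spacing was chosen after these sequences were seen. Over the 30 bases, *H2-K1* and *H2-D1* had 23 identical letters, *H2-K1* and *B2m* 13, and *H2-D1* and *B2m* 12, of which 10 are fixed by the motif. The longer stretches upstream of *B2m* and *H2-K1* show where the pair sits beside other elements. Capitals mark the pair, the interferon-stimulated response element (ISRE, searched as GAAA, 2 bases of any kind and GAAA) and matches to the NF-kB motif.
B2m (chr2:122147542-122147685, plus strand): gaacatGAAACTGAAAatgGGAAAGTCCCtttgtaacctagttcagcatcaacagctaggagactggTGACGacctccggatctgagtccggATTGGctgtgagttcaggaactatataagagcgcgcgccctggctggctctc
H2-K1 (chr17:34000348-34000477, minus strand): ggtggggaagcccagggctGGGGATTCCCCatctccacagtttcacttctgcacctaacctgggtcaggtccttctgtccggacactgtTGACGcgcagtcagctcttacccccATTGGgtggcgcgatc

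The ISRE in the form searched was found in the windows of *B2m* and *H2-T23* and in 3.44% of all windows. Other forms of this element were not searched, so windows without a match, such as that of *H2-K1*, may still hold one. The NF-kB motif was found in the windows of *B2m*, *H2-K1* and *H2-D1* and in 4.51% of all. Both strands were searched, and the TGACG and CCAAT counts include the members of the pair.

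Levels are given as FPKM (fragments per kb of exon, scaled to the library total) divided by the TMM factor of the library, so that they can be compared between genes and libraries. In Control, *B2m* was at 128 ± 9.24 (SD, n = 5), *H2-D1* at 27.7 ± 2.12, *Tapbp* at 14.4 ± 2.68, *H2-K1* at 6.97 ± 1.21, *H2-T23* at 5.78 ± 0.57, *Tap2* at 4.01 ± 0.575, *Psmb8* at 2.48 ± 0.759, *Psmb9* at 0.880 ± 0.174, *Tap1* at 0.865 ± 0.0972 and *Nlrc5* at 0.282 ± 0.0982. The light chain was thus far above every heavy chain. In this order the ranges of *H2-K1* and *H2-T23*, of *Tap2* and *Psmb8*, and of *Psmb9* and *Tap1* overlapped, and those of the other neighbors did not. Of the 2 transporter chains, *Tap2* was above *Tap1* in all 5 Control libraries. Counts ranged from 1352 to 3037 per library for *B2m* but from 17 to 741 for *Nlrc5* and 13 to 107 for *Psmb9*. Class I heavy chains differ between mouse strains and resemble each other closely, and how reads matching several genes were counted is not given in the sources used here, so the levels of *H2-K1*, *H2-D1* and *H2-T23* are uncertain.

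**Figure D1:**
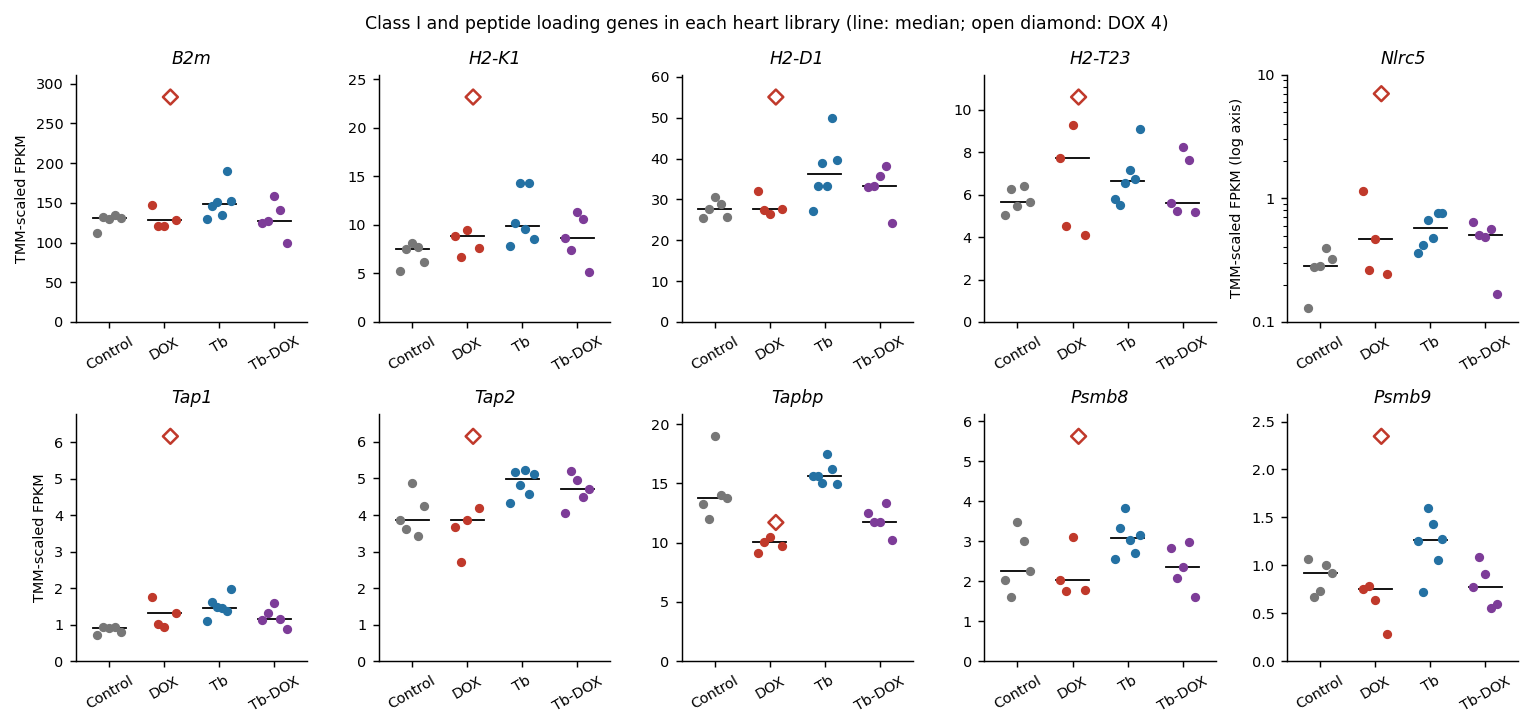
Each panel plots 1 gene as TMM-scaled FPKM in the 21 libraries by group, with a log axis for *Nlrc5*; lines are medians and the open diamond is DOX 4. DOX 4 was the highest of all libraries for 9 of the 10 genes, and for *Tapbp* the DOX points lay below those of Control and the Tb-DOX points below those of Tb.

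The library DOX 4 stood apart and decides several of the values below. *Nlrc5* passed the filter on low values only because of DOX 4 and is left out of the next 2 counts. For the other 9 genes DOX 4 was above the other 4 DOX libraries, which held for 22.5% of the 13939 genes that pass the filter without it. For 8 of these 9, all but *Tapbp*, it was the highest of the 21 libraries, which held for 9.63% of those genes. Its *Nlrc5* level (7.0) was 6.13 times the highest of the other DOX libraries, *Tap1* (6.17) 3.51 times, *Psmb9* (2.35) 3.0 times, *H2-K1* (23.2) 2.45 times, *B2m* (283) 1.92 times and *H2-D1* (55.1) 1.72 times, but *H2-T23* (10.6) 1.14 times and *Tapbp* (11.7) 1.12 times. Values without DOX 4 are therefore given beside those it moved.

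The same library was also the highest of all in 22 of 25 tested interferon-induced genes outside the pathway. *Igtp*, a GTPase induced by interferon gamma, was at 118 in DOX 4 and at 2.52 to 4.82 in the other DOX libraries. The GTPase *Iigp1* was at 131 against 4.06 to 7.07, and *Irgm2* at 70.0 against 3.08 to 4.17. Of the class I transcription genes, *Rfx5*, a subunit of the factor that binds class I and II promoters, was at 1.26 in DOX 4 and thus within the range of the other DOX libraries (0.936 to 1.89). *Ifng*, the gene of interferon gamma, had 0 counts in DOX 4 and at most 4 in any other library.

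Of the T cell markers, *Cd3e* stood out in DOX 4. It had 3854 counts there and at most 706 elsewhere, but the other 9 T cell markers had 33 counts together, against 11 to 28 in the other DOX libraries and 21 to 97 in the other groups. Of these 9, *Cd8a* (11 counts, at most 10 elsewhere) and *Cd5* (10 counts, at most 7 elsewhere) were highest in DOX 4, and *Cd3d* and *Cd8b1* were at 0. Whether T cells had a part in the class I values of DOX 4 was not tested. Of 7 NK and cytotoxic markers, *Gzma* and *Nkg7* had 1 count each in DOX 4 and the other 5 had 0. The leukocyte marker *Ptprc* was at 0.32 in DOX 4 and 0.23 to 0.34 in the other DOX libraries.

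**Figure D2:**
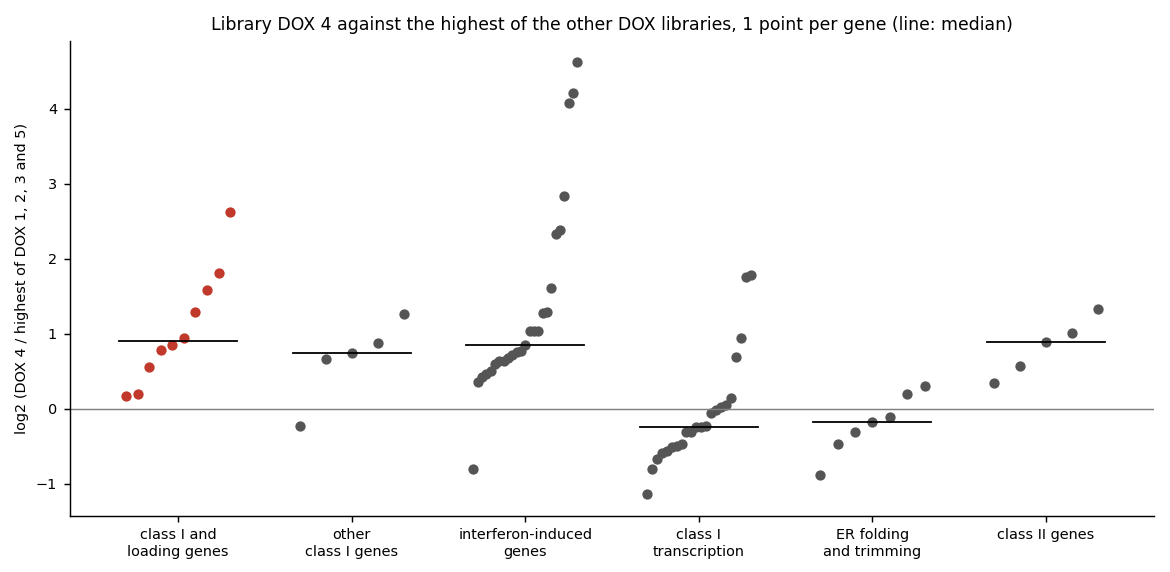
Each point is a tested gene, plotted as log2 of its TMM-scaled FPKM in DOX 4 over the highest of the other 4 DOX libraries, by gene list; lines are medians and 0 marks equal levels. All 10 class I and loading genes, among them *Nlrc5*, which was tested only because of DOX 4, and 24 of 25 interferon-induced genes lay above 0, while 7 of 22 class I transcription genes did.

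Whether doxorubicin changed the pathway in hearts without a tumor was tested by DOX against Control. In that comparison *Tap1* rose, *Tapbp* fell and 7 others did not pass the test. *Nlrc5* also passed, upward, but it was tested only because of its level in DOX 4 and is left out of these counts. Of all genes tested, 18.0% rose and 18.2% fell, so 1 and 1 of 9 are no more than the background. Scaled by library totals instead of TMM, 1423 genes rose and 3526 fell, where the TMM counts were 2523 and 2548. The median log2 fold change of the 9 genes was 0.29, against 0.00 over all genes. Without DOX 4, *Tap1* rose, *Tapbp* fell, and the median of the 9 was 0.03, with 5 values above 0 and 4 below, while 15.4% of all genes rose and 15.4% fell.

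*Nlrc5* is known as the transactivator of class I genes. Its level was 0.13, 0.28, 0.28, 0.40 and 0.32 in the 5 Control libraries. It was 1.14, 0.26, 0.47, 7.0 and 0.24 in the DOX libraries. DOX 2 and DOX 5 lay within the Control range, so the groups overlapped. The fitted log2 change was 2.69 (SE 0.70, adjusted p = 0.0050 by edgeR's quasi-likelihood test with Benjamini-Hochberg adjustment). Without DOX 4 it was 0.93 (SE 0.43, adjusted p = 0.104), which did not pass. *Nlrc5* was tested only because of this library: its mean FPKM was 0.744 over 21 libraries and 0.473 over the other 20, below the filter of 0.5.

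*B2m* was at 112, 132, 129, 135 and 131 in Control. In DOX it was at 148, 121, 121, 283 and 129. Apart from DOX 4 the 2 groups covered much the same range. The fitted log2 change was 0.33 (SE 0.18, adjusted p = 0.17), and 0.03 (SE 0.12) without DOX 4. *H2-K1*, a classical heavy chain, was at 5.27, 7.49, 8.19, 7.72 and 6.18 in Control. It was at 8.87, 6.70, 9.45, 23.2 and 7.65 in DOX. Of the DOX libraries, 4 of 5 were above the Control mean, but the groups overlapped. The log2 fold change of 0.68 (SE 0.28) had an adjusted p of 0.064 by edgeR's quasi-likelihood test and 0.039 by DESeq2, and without DOX 4 it was 0.24 (SE 0.21, adjusted p = 0.42). The other classical heavy chain, *H2-D1*, was at 25.5 to 30.6 in Control and 26.5 to 55.1 in DOX (log2 fold change 0.29, SE 0.18, adjusted p = 0.22), and its value without DOX 4 was 0.045. *H2-T23*, a nonclassical heavy chain whose product is read by NK cell receptors, was at 5.07 to 6.42 in Control and at 7.72, 4.52, 9.29, 10.6 and 4.08 in DOX. Its DOX libraries lay on both sides of the Control range (log2 fold change 0.33, SE 0.22, adjusted p = 0.25), and the value without DOX 4 was 0.16.

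*Tap1* encodes one of the 2 chains of the peptide transporter. Its level was 0.73, 0.94, 0.93, 0.93 and 0.80 in Control. In DOX it was 1.76, 1.02, 0.94, 6.17 and 1.32. All 5 DOX libraries were above all 5 Control libraries, the lowest of them only just (0.944 against 0.941). Of all genes tested, 12.0% had DOX libraries that were all higher. The fitted log2 change was 1.37 (SE 0.38, adjusted p = 0.0073), a 2.58-fold increase. Without DOX 4 it was 0.55 (SE 0.20, adjusted p = 0.046), and over the 21 fits that each left out 1 library it stayed past the threshold, with an adjusted p of at most 0.046. The call was lost with limma, where *Tap1* had 0.78 (adjusted p = 0.069) at a pseudocount of 0.1 and 0.51 (adjusted p = 0.087) at 1. *Tap2*, the other chain, was at 3.44 to 4.88 in Control and at 3.67, 2.72, 3.86, 6.15 and 4.19 in DOX. It did not pass (log2 fold change 0.03, SE 0.15, adjusted p = 0.88), and its value without DOX 4 was -0.15.

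*Tapbp* encodes tapasin, which ties the heavy chain to the transporter and favors peptides that bind well. Its level was 13.2, 11.96, 19.0, 14.1 and 13.7 in Control. In DOX it was 9.15, 10.1, 10.5, 11.7 and 9.69. Every DOX library was below every Control library, which held for 13.3% of genes tested. The fitted log2 change was -0.50 (SE 0.11, adjusted p = 0.0012), a level 0.709 times that of Control, and it was -0.54 (adjusted p = 0.0012) without DOX 4. Of the 10 genes, *Tapbp* was the only one that fell. In the gene *Zbtb22*, which overlaps it on the same strand, the fitted log2 change was 0.86 (SE 0.20, adjusted p = 0.0021), in the opposite direction, with 91 to 280 counts per library against 444 to 1261 for *Tapbp*. In Tb-DOX against Tb the value of *Zbtb22* was -0.20 (adjusted p = 0.60).

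*Psmb8* and *Psmb9* encode catalytic subunits that replace constitutive ones in the immunoproteasome. *Psmb8* was at 1.61 to 3.49 in Control and at 2.03, 1.76, 3.12, 5.62 and 1.78 in DOX (log2 fold change 0.21, SE 0.28, adjusted p = 0.59, and -0.18 without DOX 4). *Psmb9* was at 0.67 to 1.07 in Control and at 0.75, 0.78, 0.63, 2.35 and 0.28 in DOX (0.12, SE 0.37, adjusted p = 0.83). For *Psmb9*, only 1 of the 5 DOX libraries was above the Control mean, and without DOX 4 the value was -0.51 (SE 0.29, adjusted p = 0.19). The signs of both values depended on that library.

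**Figure D3:**
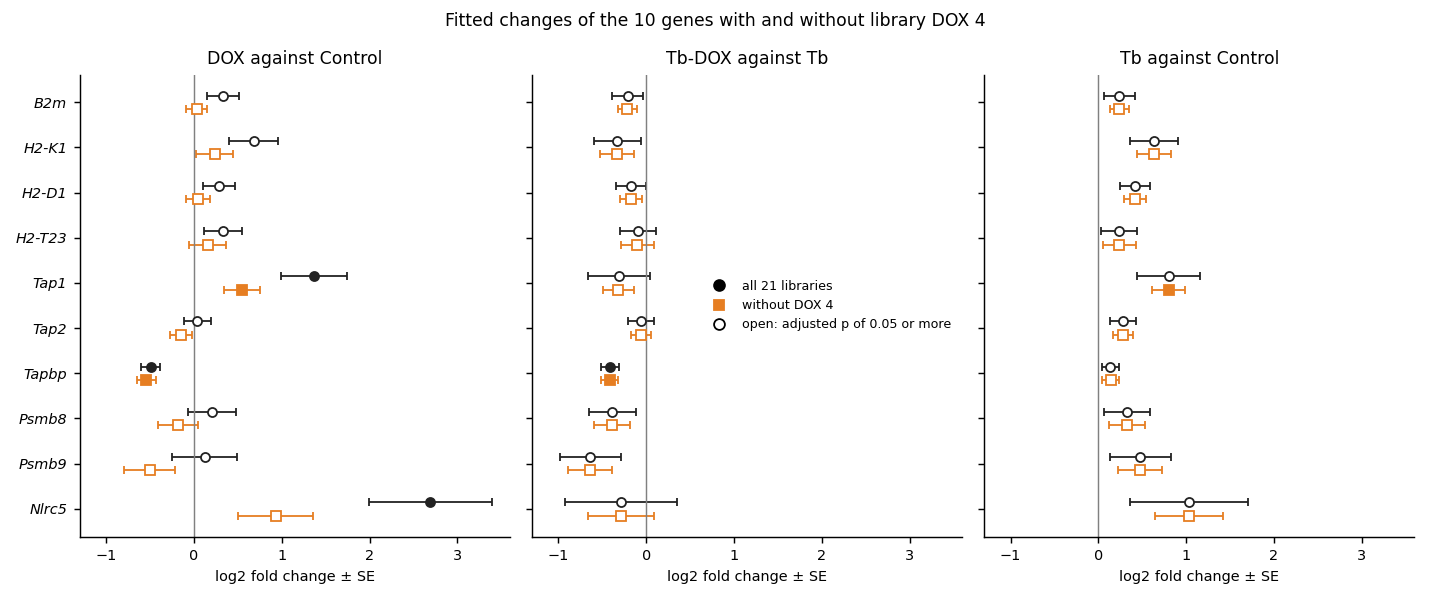
Fitted log2 fold changes ± SE of the 10 genes in 3 comparisons, with all 21 libraries (black circles) and without DOX 4 (orange squares); filled symbols have an adjusted p under 0.05. In DOX against Control the values of 9 genes moved toward or past 0 without DOX 4 and that of *Tapbp* did not, and in Tb-DOX against Tb all 10 values lay below 0.

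Whether doxorubicin changed the same genes in tumor-bearing mice was tested by Tb-DOX against Tb, which shares no library with the comparison above. Only *Tapbp* passed, and it fell. All 10 values were below 0, also when scaled by library totals, with a median of -0.30 against -0.02 over all genes, and the other 9 did not pass. Without Tb 6 the value of *H2-T23* was 0.0069. *Tapbp* was at 15.6, 15.7, 15.03, 17.5, 16.2 and 14.98 in the Tb libraries. In Tb-DOX it was at 12.5, 11.7, 11.7, 13.3 and 10.2. The groups did not overlap, as in 2.22% of genes tested with lower levels in Tb-DOX. The fitted log2 change was -0.41 (SE 0.10, adjusted p = 0.023), while 2.18% of all genes rose and 2.54% fell. Without Tb 4, Tb-DOX 2, Tb-DOX 3 or Tb-DOX 5 the adjusted p was 0.051 to 0.080, with values of -0.41 to -0.36. By library totals (-0.40, adjusted p = 0.085) and by limma (-0.40, adjusted p = 0.079, and -0.38, adjusted p = 0.074) it did not pass either. The difference between the 2 doxorubicin effects on *Tapbp* was 0.08 (SE 0.15, adjusted p = 0.74), an interval of -0.21 to 0.38 at 2 SE.

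The next values toward a change were those of the immunoproteasome subunits. *Psmb9* was at 0.72 to 1.60 in Tb (median 1.26) and at 0.78, 1.09, 0.91, 0.56 and 0.60 in Tb-DOX. All 5 Tb-DOX libraries were below the Tb mean (log2 fold change -0.64, SE 0.35), and the adjusted p was 0.32. *Psmb8* was at 2.55 to 3.82 in Tb and 1.60 to 2.98 in Tb-DOX, with all 5 Tb-DOX libraries below the Tb mean as well (-0.38, SE 0.26, adjusted p = 0.44). *B2m* was at 130 to 190 in Tb and 99.3 to 159 in Tb-DOX (-0.21, SE 0.18, adjusted p = 0.54), and *H2-K1* at 7.85 to 14.4 and 5.17 to 11.3 (-0.33, SE 0.27, adjusted p = 0.53). *Tap1* was at 1.11 to 1.98 in Tb and 0.89 to 1.59 in Tb-DOX (-0.31, SE 0.35, adjusted p = 0.67). *Nlrc5* was at 0.36 to 0.77 in Tb and 0.17 to 0.64 in Tb-DOX (-0.28, SE 0.64, adjusted p = 0.85).

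Tapasin works beside chaperones of the endoplasmic reticulum, and 3 of these fell with doxorubicin in both states. Of the 7 tested genes for folding and trimming, 3 fell and 1 rose in DOX against Control (18.2% of all genes fell), and 3 fell and none rose in Tb-DOX against Tb (2.54% of all genes fell), with list medians of -0.26 and -0.28. *Calr*, the chaperone calreticulin, was at 82.2 to 100.04 in Control and at 45.4, 46.8, 79.5, 43.2 and 55.6 in DOX. It was at 72.1 to 97.5 in Tb and 48.8 to 58.3 in Tb-DOX, so that the groups were apart in both states. Its fitted log2 change was -0.76 (SE 0.13, adjusted p = 0.00019) without a tumor and -0.67 (adjusted p = 0.0051) with one. *Canx*, the membrane chaperone calnexin, fell by 0.25 (adjusted p = 0.014) and by 0.43 (adjusted p = 0.0023), and *Pdia3*, the disulfide isomerase of the loading complex, by 0.32 (adjusted p = 0.038) and by 0.48 (adjusted p = 0.021), both on the log2 scale. Without DOX 4 the change of *Pdia3* in DOX against Control was -0.32 with an adjusted p of 0.062.

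The other genes of that list did not share this direction in every case. *Hspa5*, the most abundant chaperone of the endoplasmic reticulum here with a mean FPKM of 121, had values of 0.15 (adjusted p = 0.37) and -0.28 (adjusted p = 0.20). *Lnpep*, an aminopeptidase of endosomes, rose in DOX against Control (0.34, adjusted p = 0.0063). In Tb-DOX against Tb it had -0.24 (adjusted p = 0.11), with every Tb-DOX library below every Tb library, and its interaction was -0.59 (adjusted p = 0.014). *Erap1*, which trims peptides in the endoplasmic reticulum, had -0.29 (adjusted p = 0.061) and -0.21 (adjusted p = 0.33) in the 2 states, and *Tapbpl*, the tapasin-related editor TAPBPR, had -0.26 (adjusted p = 0.43) and 0.12 (adjusted p = 0.82). *Canx*, *Pdia3*, *Lnpep*, *Erap1* and *Tapbpl* were named after their values were seen.

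**Figure D4:**
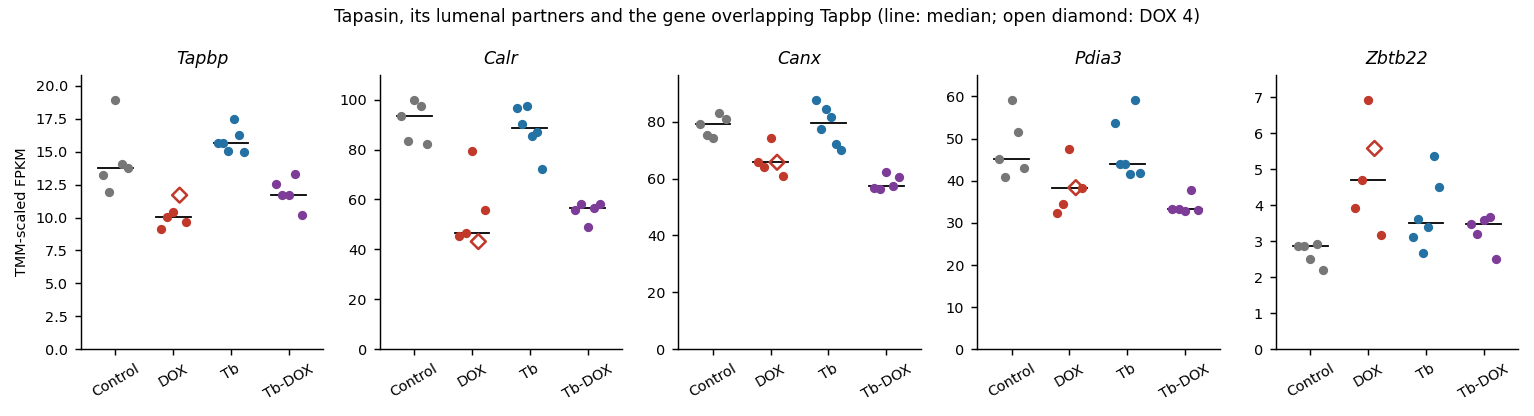
TMM-scaled FPKM per library by group for *Tapbp*, *Calr*, *Canx*, *Pdia3* and *Zbtb22*, with axes from 0; lines are medians and the open diamond is DOX 4. *Tapbp* and *Calr* lay lower with doxorubicin in both states without overlap, while *Zbtb22*, whose gene model overlaps that of *Tapbp*, was higher in DOX (3.17 to 6.94) than in Control (2.22 to 2.92).

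Cell type markers also differed between these groups. The summed level of 10 macrophage markers was 132 to 158 CPM in Control and 58.6 to 111 in DOX, and 160 to 199 in Tb and 95.0 to 194 in Tb-DOX. The sum of the cardiomyocyte markers was 53636 to 70612 CPM in Control and 73628 to 87136 in DOX, and 46238 to 54861 in Tb and 60810 to 75267 in Tb-DOX. The leukocyte marker *Ptprc* was at 9.57 to 14.5 CPM in Control and 4.17 to 6.30 in DOX, and fell (-1.24, adjusted p = 0.0021). Dendritic cell markers summed to 28.2 to 36.1 CPM in Control and 23.5 to 27.2 in DOX, and neutrophil markers to 2.45 to 4.66 and 7.68 to 56.9. Endothelial markers summed to 971 to 1070 CPM in Control and 858 to 1107 in DOX, and fibroblast markers to 1045 to 1360 and 884 to 1424. The part of these markers in the changes of *Tapbp* and its partners was not tested.

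Class II genes, which present peptides from outside the cell, are a contrast to these values. Of 5 tested class II genes, 4 fell in DOX against Control (18.2% of all genes fell) and 4 in Tb-DOX against Tb (2.54% of all genes fell), with medians of -3.08 and -2.61. *Cd74*, the invariant chain and the most abundant of them, was at 24.5 to 45.8 in Control and 1.66 to 9.27 in DOX (-2.83, adjusted p = 8.2e-06), and *H2-Aa*, a class II alpha chain, changed by -3.68 (adjusted p = 1.4e-06). In DOX 4 all 5 were above the other DOX libraries, which held for 22.7% of all genes tested. For 1 of the 5 it was the highest of all libraries, which held for 9.84% of all genes tested. For *Cd74* the highest DOX level (9.27) was below the lowest Control level (24.5). No test compared the class I with the class II genes.

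A tumor alone was compared in Tb against Control, which reuses the Control and Tb libraries of the comparisons above. None of the 10 genes passed edgeR's quasi-likelihood test, DESeq2 or limma, while 6.28% of all genes passed in either direction. With edgeR and with DESeq2, 3 genes had an unadjusted p under 0.05 (*H2-K1*, *H2-D1* and *Tap1*), and with limma 3 or 2 by pseudocount. Such values were common over all 13990 genes tested: 2862 genes had one with edgeR, 2960 with DESeq2 and 2566 or 2641 with limma. All 10 values were above 0, with a median of 0.37 against -0.01 over all genes. *Tap1* was at 1.11, 1.62, 1.49, 1.45, 1.38 and 1.98 in Tb. All 6 libraries were above the highest Control library (0.941), as in 4.21% of genes tested. Its fitted log2 change was 0.80 (SE 0.36, adjusted p = 0.21). DOX 4 enters this test through the shared estimate of the spread: without it the value was 0.80 with an adjusted p of 0.0097, where 5.15% of all genes rose. With only Tb and Control in the fit it was 0.82 with an adjusted p of 0.0093, where 3.85% of all genes rose.

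The values of the other members were smaller than that of *Tap1*, except for *Nlrc5*. *H2-K1* was at 7.85, 10.2, 14.3, 9.63, 14.4 and 8.54 in Tb, above the Control mean in 6 of 6 libraries (log2 fold change 0.63, SE 0.27, adjusted p = 0.18). *H2-D1* was at 27.3 to 49.8 in Tb (0.42, SE 0.17, adjusted p = 0.16), and *B2m* at 130 to 190 (0.24, SE 0.18, adjusted p = 0.46). Tb 5 was the highest Tb library for these 3 genes, and without it the values were 0.54 for *H2-K1*, 0.32 for *H2-D1* and 0.16 for *B2m*. Its T cell markers summed to 47.1 CPM, against 4.31 to 5.89 CPM in the other Tb libraries, but those other than *Cd3e* had 76 counts together, within the 48 to 97 of the other Tb libraries. Across genes its log2 levels correlated with theirs at r = 0.92 to 0.96. *Nlrc5* was at 0.36, 0.42, 0.67, 0.48, 0.77 and 0.76 in Tb (1.03, SE 0.67, adjusted p = 0.39), above the Control mean in 6 of 6 libraries. *H2-T23* had 0.24 (SE 0.21), *Tap2* 0.28 (SE 0.15), *Tapbp* 0.14 (SE 0.10), *Psmb8* 0.32 (SE 0.26) and *Psmb9* 0.48 (SE 0.35) as log2 fold changes. Leukocyte markers differed between the same groups: *Ptprc* was at 9.57 to 14.5 CPM in Control and 40.8 to 156 in Tb, and 7 neutrophil markers summed to 2.45 to 4.66 CPM and 504 to 4347 CPM. Their part in the class I values was not tested.

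In Tb-DOX against DOX, *Nlrc5* fell (log2 fold change -1.94, SE 0.67, adjusted p = 0.048) and no other member passed, while 7.93% of all genes fell. As *Nlrc5* was tested only because of its level in DOX 4, this call was drawn from a gene selected by that level. This comparison reuses the DOX and Tb-DOX libraries. Scaled by library totals, 2512 genes rose and 323 fell, where the TMM counts were 1332 and 1110. Without DOX 4 the value was -0.18 (adjusted p = 0.81). By library totals and by limma *Nlrc5* did not pass (adjusted p = 0.067 to 0.51), while *Tapbp* did and was higher in Tb-DOX (0.37 to 0.41, adjusted p = 0.031 to 0.035), against 0.22 (adjusted p = 0.16) by edgeR with TMM. The doxorubicin effects in the 2 states were compared by the interaction. Of the 10 genes, *Tap1* passed, with a difference of -1.68 (SE 0.52, adjusted p = 0.045) between the effect with and without a tumor. Of all genes 8.94% passed in either direction, so 1 of 10 is close to the background. Without DOX 4 the difference was -0.87 (SE 0.27, adjusted p = 0.061). *Nlrc5* had -2.97 (SE 0.94, adjusted p = 0.051), and -1.21 (adjusted p = 0.18) without DOX 4. *H2-K1* had -1.01 (SE 0.39, adjusted p = 0.095), and -0.57 without DOX 4. *B2m* had -0.54 (SE 0.26, adjusted p = 0.17), and -0.25 without DOX 4.

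The balance between inducible and constitutive proteasome subunits was followed as a ratio of FPKM, with a two-sided exact permutation test and adjustment over 16 tests. *Psmb8* to *Psmb5* was 0.124 ± 0.0216 (SD, n = 5) in Control, 0.162 ± 0.108 in DOX, 0.175 ± 0.0387 (n = 6) in Tb and 0.133 ± 0.0436 (n = 5) in Tb-DOX. *Psmb9* to *Psmb6* was 0.0219 ± 0.00499, 0.0200 ± 0.0158, 0.0317 ± 0.00804 and 0.0187 ± 0.00543 in the same order. The constitutive subunit was thus more abundant in every group. None of the 16 differences passed the adjusted threshold in this exact permutation test, and 2 had an unadjusted p under 0.05. These were *Psmb8* to *Psmb5* in Tb against Control (log2 difference 0.48, exact permutation p = 0.022, adjusted 0.17) and *Psmb9* to *Psmb6* in Tb-DOX against Tb (-0.77, exact permutation p = 0.022, adjusted 0.17). The smallest p these permutations can give is 0.0043 for 6 against 5 libraries and 0.0079 for 5 against 5. *Psmb10* to *Psmb7* was 0.440 ± 0.0582 in Control and 0.331 ± 0.142 in DOX, and *H2-K1* to *H2-D1* was 0.250 ± 0.0277 and 0.315 ± 0.0724. In DOX 4 the ratios were 0.342, 0.0473, 0.572 and 0.421, in each case the highest of the DOX libraries. In DOX against Control the log2 differences of the 4 ratios, in the same order, were 0.18, -0.41, -0.49 and 0.31. Without DOX 4 they were -0.14, -0.80, -0.72 and 0.20, so the sign for *Psmb8* to *Psmb5* depended on that library.

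Most other proteasome genes did not pass. The activators *Psme1*, *Psme2* and *Psme3* and the third inducible subunit *Psmb10* did not pass in either doxorubicin comparison (0 of 4 each, where 18.0% of all genes rose and 18.2% fell in DOX against Control and 2.18% and 2.54% in Tb-DOX against Tb), although without DOX 4 *Psmb10* fell by 0.55 on the log2 scale (adjusted p = 0.012). The most abundant, *Psme1*, had 0.17 (adjusted p = 0.21) in DOX against Control. Of the 3 constitutive catalytic subunits only *Psmb6* rose, by 0.21 (adjusted p = 0.040, and 0.078 without DOX 4), and of 11 other core subunits 4 rose and none fell (18.0% of all genes rose), with *Psmb4* at 0.44 (adjusted p = 0.0025) and the most abundant, *Psma6*, at 0.40 (adjusted p = 0.0027). None of the 3 or the 11 passed in Tb-DOX against Tb. Of 6 cytosolic peptidases 1 fell, close to the share over all genes, the bleomycin hydrolase *Blmh* (-0.50, adjusted p = 0.0021), and the most abundant, *Nrdc*, had 0.14 (adjusted p = 0.14).

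Of 14 other class I genes listed, 5 were tested, of which 1 fell and 1 rose in DOX against Control, close to the 18.2% and 18.0% of all genes. *H2-T10* (0.24, adjusted p = 0.58), *H2-T22* (0.35, adjusted p = 0.18) and *H2-M3* (0.11, adjusted p = 0.77) did not pass. *H2-T24*, a nonclassical heavy chain gene and the most abundant of the 5, was at 9.22 to 16.4 in Control and 3.77 to 5.62 in DOX and fell by 1.45 on the log2 scale (SE 0.24, adjusted p = 0.00013). *H2-Q4*, another nonclassical gene, named after its values were seen, was at 3.26 to 6.83 in Control and at 10.3, 8.42, 10.4, 24.9 and 6.37 in DOX, and rose by 1.27 (SE 0.28, adjusted p = 0.0014), or by 0.83 (adjusted p = 0.0039) without DOX 4. Neither passed in Tb-DOX against Tb (-0.27, adjusted p = 0.53, and -0.15, adjusted p = 0.80), and the interaction was 1.18 (adjusted p = 0.032) for *H2-T24* and -1.42 (adjusted p = 0.028) for *H2-Q4*. Without DOX 4 it was 1.17 (adjusted p = 0.052) and -0.98 (adjusted p = 0.042). In Tb 5 *H2-T24* was at 3.37, against 10.4 to 13.1 in the other Tb libraries and 6.64 to 9.06 in Tb-DOX. Without Tb 5 its value in Tb-DOX against Tb was -0.45 (adjusted p = 0.056) and its interaction 0.99 (adjusted p = 0.0053), while *H2-Q4* had 0.0030 and -1.27 (adjusted p = 0.033). *H2-T10*, *H2-T22* and *H2-M3* were named after their values were seen. Reads of these genes may be split among close copies. Of 4 tested partners of *B2m* outside MHC, *Fcgrt*, the neonatal Fc receptor, was at 32.7 to 51.5 in Control and 13.5 to 22.3 in DOX and fell by 1.07 (adjusted p = 4.8e-05), and *Mr1*, which presents metabolites, rose by 0.57 (adjusted p = 0.0029), on the log2 scale. Neither passed in Tb-DOX against Tb (-0.25, adjusted p = 0.37, and 0.14, adjusted p = 0.59). *Fcgrt* also fell in Tb against Control (-0.64, adjusted p = 0.0097), and its interaction was 0.82 (adjusted p = 0.028), or 0.74 (adjusted p = 0.055) without DOX 4, while that of *Mr1* was -0.43 (adjusted p = 0.14).

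Of 22 tested genes of class I transcription, 3 rose and 3 fell in DOX against Control, where 18.0% of all genes rose and 18.2% fell. Those that rose were *Rfxank*, *Nfyb* and *Nfyc*, subunits of factors that bind class I promoters, and *Nfya* and *Tyk2* fell. The interferon receptor chain *Ifngr2* had the largest called change (-1.44, adjusted p = 0.00020), and the most abundant, *Ifngr1*, had -0.28 (adjusted p = 0.12). Of 25 interferon-induced genes outside the pathway, 8 rose and 1 fell (18.0% of all genes rose and 18.2% fell), against 4 and 2 without DOX 4 (15.4% of all genes in each direction), so that the 4 of 25 are close to the background. In that list *Iigp1*, the most abundant, rose by 2.92 (SE 0.74, adjusted p = 0.0042), and 0.46 (adjusted p = 0.20) without DOX 4. In Tb-DOX against Tb, 0 of the 25 interferon-induced genes passed, and 1 fell when DOX 4 was left out of the fit, which is near the background of that comparison (2.18% of all genes rose and 2.54% fell). *Igtp*, *Irgm2*, *Rfx5*, *Mr1*, *Psmb10*, *Zbtb22* and the called genes of class I transcription other than *Ifngr2* were named after their values were seen.

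As a description, the genes most like the 10 were sought by correlation over libraries, which share groups and processing. Over all 21 libraries the mean of the 10 standardized log2 CPM values followed *Irf9* (r = 0.86), *Parp10* (0.85), *Igtp* (0.84), *Gm12250* (0.82) and *Irgm2* (0.82) most closely. With group means taken out, the closest were *Serpinb1a* (0.91), *H2-Q4* (0.90), *Igtp* (0.88), *Parp10* (0.88) and *Arhgap9* (0.88). Without DOX 4 none of those closest 5 genes was among the closest 5: over 20 libraries *Hcls1*, *Stx11*, *Ly6a*, *Marchf1* and *Skap2* had r between 0.82 and 0.83. Among the 10 genes, which are part of that mean, r was highest for *H2-K1* (0.91), *B2m* (0.90) and *H2-D1* (0.90) and lowest for *Tapbp* (0.37) over the 21 libraries. Without DOX 4 it was highest for *H2-D1* (0.88) and lowest for *Psmb9* (0.56), with *Tapbp* at 0.58.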

How the data were processed

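The labels name total RNA and the submitters' processing notes name cutadapt, FastQC, HISAT2, HTSeq 0.6.1, DESeq2 1.34.0 and GRCm39, without their order. The authors deposited 1 table of 56691 genes with whole-number read counts and FPKM values per library. The deposited FPKM equalled the count divided by gene length and library total, within 0.01, in 100% of values, and so holds no correction for composition. Libraries were grouped by the labels as Control (n = 5), DOX (n = 5), Tb (n = 6) and Tb-DOX (n = 5).

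The 13990 genes whose FPKM averaged 0.5 or more over the libraries were tested on counts with edgeR 4.0.16 in R 4.3.3 (TMM, quasi-likelihood F test, the 4 groups in 1 fit), with a Benjamini-Hochberg adjusted p under 0.05 as the threshold. The interaction is the doxorubicin effect in tumor-bearing mice minus that in mice without a tumor. The 10 genes and the lists were chosen with earlier results of these data known. Of each list other than the cell type markers the text names the most abundant gene and the largest called change in DOX against Control. Marker lists are given as summed levels or counts. DESeq2 1.42.0 and limma 3.58.1 on log2(FPKM + 0.1) or log2(FPKM + 1) served as alternatives. FPKM ratios were compared by exact permutation (scipy 1.17.1), and likeness used Pearson's r on log2(CPM + 0.5). On simulated counts for DOX against Control over 13990 genes, 163 of 200 changed genes were recovered with 6 false calls, and for the interaction 118 of 200 with 3 false calls. Fits without DOX 4 for lists and likeness, and without Tb 5 for other class I genes, were chosen after seeing the data. Promoter windows came from RefSeq (GRCm38.p6).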

Additional observations from a re-analysis of the deposited data

Results flagged for a closer look

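The spread within groups was checked by Dixon's test on log2 levels, in 40 combinations of gene and group, of which chance marks about 1 in 20. The library DOX 4 lay apart from the other DOX libraries for *B2m* (283.3), *H2-K1* (23.2) and *H2-D1* (55.1), in TMM-scaled FPKM. For *B2m* the library Control 1 (111.8) lay below the other Control libraries, and for *Nlrc5* the library Tb-DOX 5 (0.168) lay below the other Tb-DOX libraries. For *Nlrc5* and *Tap1*, whose ratio of DOX 4 to the next DOX library was the largest of the 10 genes, this test did not mark DOX 4.

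The effect of doxorubicin on *Tap1* differed between mice with and without a tumor by the interaction term, with a log2 difference of -1.68 (adjusted p = 0.045 by edgeR's quasi-likelihood test). It was -0.87 (adjusted p = 0.061) without DOX 4.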

How the results depend on the processing

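Over the alternatives other than leaving out 1 library, 500 of the single-gene and single-ratio values kept their direction and side of the threshold, 22 lost the call, 12 gained it and 42 changed sign without passing in either case. In DOX against Control, where 3 genes passed with *Nlrc5*, limma with either pseudocount and a filter at a mean FPKM of 5 gave 1, and leaving out 1 library gave 2 to 4. In Tb-DOX against Tb, where 1 passed, library totals, limma, an adjusted p under 0.01 and a log2 fold change of at least 1 gave 0, and leaving out 1 library gave 0 to 1. In Tb against Control, where 0 passed, using only the groups compared or leaving out DOX 4, Tb 5 and Tb-DOX 2 together gave 1, filtering and fitting without DOX 4 (chosen after seeing the data) gave 2, and leaving out 1 library gave 0 to 1. In Tb-DOX against DOX, where 1 passed, only the groups compared, robust moderation, a filter at a mean FPKM of 5, the replicate block, the 3 libraries left out, the fit without DOX 4 and an adjusted p under 0.01 gave 0, library totals and limma gave 1 but called *Tapbp* (higher) and not *Nlrc5*, and leaving out 1 library gave 0 to 1. For the interaction, where 1 passed, median-ratio size factors, DESeq2 and no filter gave 2, while library totals, limma, that filter, robust moderation, the replicate block, the 3 libraries left out, the fit without DOX 4 and an adjusted p under 0.01 gave 0, and leaving out 1 library gave 0 to 2. None of the ratios passed in any of the 21 fits that left out 1 library (0 to 0). Apart from fits with fewer samples or genes, the cause was not tested.

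Signs changed as follows, in log2 units. In DOX against Control, *Tap2* was -0.11 by library totals, -0.14 and -0.11 by limma (pseudocounts 0.1 and 1), -0.15 with the 3 libraries left out and -0.15 in the fit without DOX 4. *Psmb8* was -0.027 and -0.0064 by limma, -0.19 and -0.19 in those 2 fits. *Psmb9* was -0.030 by library totals, -0.26 and -0.076 by limma, -0.031 with the block, -0.51 and -0.51. In Tb-DOX against DOX, with the 3 libraries left out and then without DOX 4, *B2m* was 0.014 and 0.0092, *H2-K1* 0.12 and 0.081, *H2-D1* 0.21 and 0.22, *Psmb8* 0.17 and 0.13, and *Psmb9* 0.20 and 0.36, and *H2-T23* was 0.052 with the 3 left out. By library totals *H2-D1* was 0.17 and *H2-T23* 0.00367. By limma *H2-D1* was 0.20 and 0.19, *H2-T23* 0.076 and 0.058, *Psmb8* 0.034 and 0.0086, and *Psmb9* 0.15 and 0.023. *H2-D1* was 0.027 with the filter at 5. The interaction of *Tap2* was 0.061 by library totals, 0.091 and 0.067 by limma, 0.039 with the 3 left out and 0.093 without DOX 4. Library totals moved the median of all genes to -0.14 in DOX against Control, 0.18 in Tb-DOX against DOX and 0.14 in the interaction.

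Leaving out 1 library changed signs within these ranges. In DOX against Control these were -0.15 to 0.15 for *Tap2*, -0.18 to 0.37 for *Psmb8*, -0.51 to 0.36 for *Psmb9* and -0.14 to 0.34 for *Psmb8* to *Psmb5*. In Tb-DOX against Tb the range was -0.21 to 0.0069 for *H2-T23*. In Tb-DOX against DOX they were -0.50 to 0.065 for *H2-K1*, -0.11 to 0.20 for *H2-D1*, -0.41 to 0.12 for *Psmb8*, -0.52 to 0.34 for *Psmb9*, -0.29 to 0.19 for *Psmb8* to *Psmb5* and -0.17 to 0.55 for *Psmb9* to *Psmb6*. For the interaction they were -0.21 to 0.087 for *Tap2* and -0.040 to 0.14 for *Tapbp*, and for *Psmb10* to *Psmb7* in Tb against Control -0.059 to 0.13. *Nlrc5* in Tb-DOX against DOX passed in 5 of 21 such fits and the interaction of *Tap1* in 6 of 21.

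Replicate numbers did not pair the libraries: over 30 same-numbered pairs the correlation of deviations from group means was -0.26 to 0.23, and 5 were over 0.1. With the replicate number as a block, 3 genes passed in DOX against Control (*Tap1* 1.16, *Nlrc5* 1.97, *Tapbp* -0.49), and *Nlrc5* in Tb-DOX against DOX was -1.20 (adjusted p = 0.22) and the interaction of *Tap1* -1.38 (adjusted p = 0.10), by edgeR's quasi-likelihood test.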
